A study of Rattus norvegicus with 6 samples.

Results

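Potassium channels are membrane proteins that let potassium leave or enter cells along its electrochemical gradient, and in rats the genes of their subunits carry names that begin with Kcn. The members described here are the 75 of 27321 features in the table of normalized counts whose name starts with Kcn, followed by lower case letters and a digit. The RNA came from the tip of the kidney inner medulla (IM) of male Sprague-Dawley rats aged 3 months and weighing about 150 g, in 2 groups of 3 rats. The control rats received vehicle, and the STZ rats received 62.5 mg/kg of streptozotocin (STZ) by the tail vein, which destroys insulin-producing cells and makes rats diabetic. Tissue was taken 15 days after the injection, and each rat gave 1 library, so that p-values measure the spread between rats.

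Potassium channel proteins set the membrane voltage that drives transport of other solutes across kidney tubule cells, recycle potassium beside pumps and cotransporters, and secrete potassium into the urine. Pore-forming subunits fall into voltage-gated, calcium- or sodium-activated, inward rectifier and two-pore domain families, and accessory subunits change how the voltage-gated pores open or reach the membrane. Of the 75 members, 33 were voltage-gated pore subunits, 12 were their accessory subunits, 10 were calcium- or sodium-activated channel genes, 11 were inward rectifiers and 9 were two-pore domain channels.

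The values are normalized counts, which are uniquely mapped reads of each gene divided by a size factor of the library. They are levels per gene that depend on gene length, so a higher value does not by itself mean more transcripts of that gene than of another. Control replicates 1, 2 and 3 held 4657450, 5575171 and 3412311 reads on features, and STZ replicates 1, 2 and 3 held 5014659, 4475648 and 3963074. The 836 olfactory receptor genes were taken as a measure of background, by the 95th percentile of their normalized counts. For control replicates 1, 2 and 3 this percentile was 2.05, 6.29 and 10.02, and for STZ replicates 1, 2 and 3 it was 1.86, 5.93 and 9.03. Replicate 1 of both groups thus had the lowest background and replicate 3 of both groups the highest, and the groups overlapped. By the column headers, lane 3 carried every control library while lanes 7, 6 and 8 carried STZ replicates 1, 2 and 3. Effects of lane and of treatment therefore cannot be told apart.

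Most Kcn genes were near or under background in this tissue. A read was found in at least 1 library for 73 of the 75 members, 30 members stayed at or under 3 reads in all 6 libraries, and 14 were above the olfactory receptor percentile in all 6. The 14 were the inward rectifiers Kcnj16, Kcnj8 and the joined feature Kcnj13+LOC100362458, the two-pore channel Kcnk1, the accessory subunits Kcne3, Kcne4, Kcnab1 and Kcnip2, the voltage-gated pore subunits Kcnd2, Kcnc2, Kcnh5 and the joined feature Kcnd3+F1M4Y3_RAT, and the calcium- or sodium-activated Kcnn3 and Kcnt2. With the 90th or the 99th percentile in place of the 95th, 22 or 5 members were above background in all libraries. Olfactory receptor genes are short, and many Kcn loci hold long introns, so a comparison was also made per kilobase of locus. The background there was the mean of the olfactory receptor genes, their summed normalized counts over their summed length, and not a percentile. On that scale 9 members were above the olfactory receptor mean in all 6 libraries, namely Kcnj16, Kcne3, Kcne4, Kcne2, Kcnj2, Kcnj8, Kcnk1, Kcnj13+LOC100362458 and Kcna2. A percentile per kilobase was not taken. The tested members had loci from 457 bp for Kcne2 to 504013 bp for Kcnd2, introns included.

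The 27 members whose normalized counts averaged 5 or more over the 6 libraries were compared between the groups, in a fit by limma over all 13486 features with such a mean. The log2 fold changes below compare STZ with control after 1 was added to each normalized count, so they understate differences between low values. Adjustment of p-values followed Benjamini and Hochberg over the 13486 features. None of the 27 members passed an adjusted p of 0.05: limma called 0 members, against 2.1% of all features tested. At an unadjusted p under 0.05 there were 6 members, 5 higher and 1 lower in STZ rats, or 22.2% of the members tested against 14.7% of all features. The groups did not overlap for 5 members, 4 higher and 1 lower, or 18.5% against 20.3% of all features tested. With every member that had a read counted, it was 7 of 73, or 9.59%, against 12.8% of all features with a read. The lower member at an unadjusted p under 0.05 and among the 5 was Kcnj2, which met the minimum mean only through its control values. The fold change was positive for 16 members and negative for 11, with a median log2 of 0.11 against 0.0056 over all features tested. With another pseudocount, filter, scaling or prior, limma called 1 member, Kcnj2 or Kcnk1, under 6 settings, and it called 0 under 8 settings that include each library left out in turn. The share of all features called in the 6 fits ran from 0.230% without the intensity trend to 4.32% with a minimum mean of 20, where only 6 members were tested. The 48 members with a lower mean, of at most 4.56 normalized counts, were not tested.

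**Figure D1:**
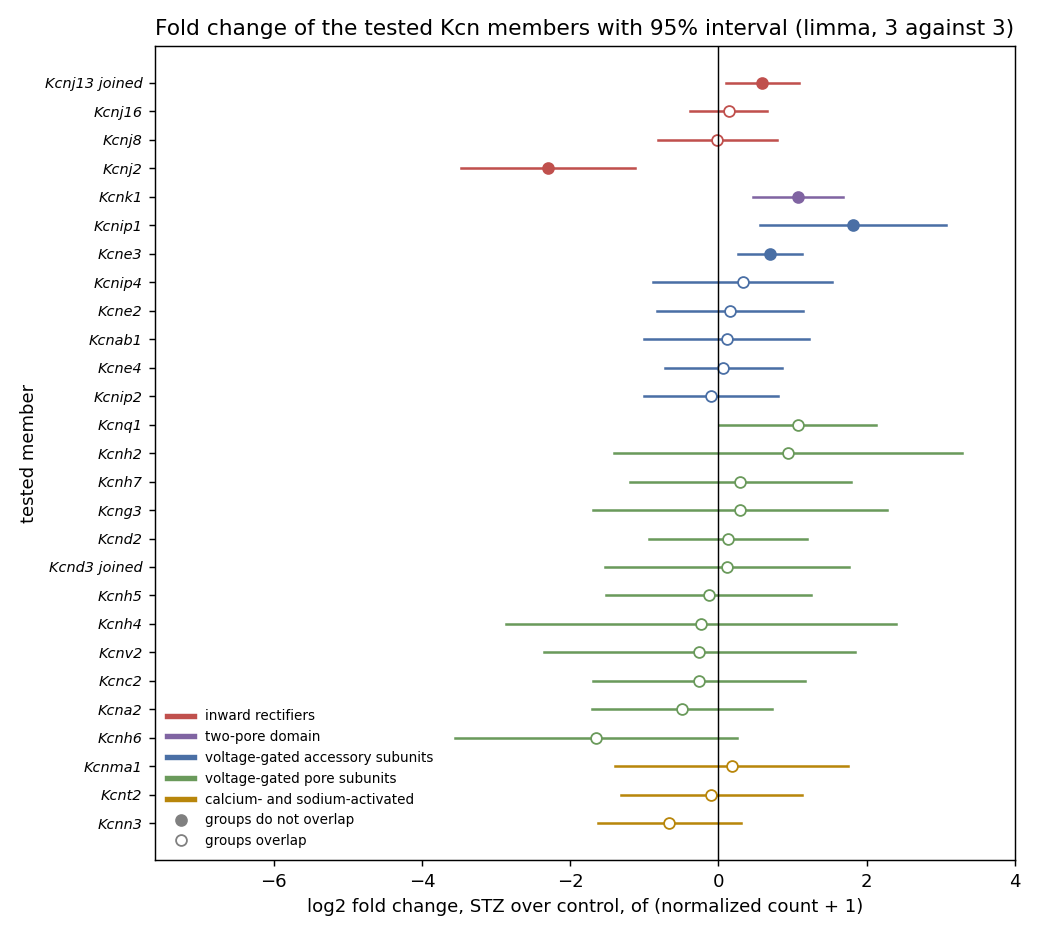
Log2 fold change (STZ over control, of normalized count + 1) of each of the 27 tested members on the horizontal axis, by role, with its 95% interval from limma (3 libraries a group). Filled points are the 5 members whose groups do not overlap.

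Inward rectifiers pass potassium more easily into than out of the cell and hold the resting voltage. Kcnj2 encodes Kir2.1, a strong inward rectifier. Its locus at chr10:100574985-100576268 of rn4 has 1284 bp, the length of the coding sequence, so reads in the untranslated ends were not counted. The normalized counts of Kcnj2 were 22.6, 13.7 and 14.5 for control replicates 1, 2 and 3 and 2.79, 2.97 and 2.01 for STZ replicates 1, 2 and 3, an order kept below. Every STZ value lay under every control value, with group means of 16.9 ± 4.89 and 2.59 ± 0.510 (SD, n = 3 each). Behind these values stood 22, 18 and 13 reads in control and 3, 3 and 2 reads in STZ libraries. Over the 53 control and 8 STZ reads the control to STZ ratio was 6.42, with a 95% interval of 3.03 to 15.6 that covers counting error only. By limma the log2 fold change was -2.30 (SE 0.53), or -1.51 with a pseudocount of 5, and its adjusted p of 0.0531 was just above the threshold. Kcnj2 met the minimum mean of 5 only through its control values, since its STZ mean was 2.59. No conclusion is therefore drawn from its p-values. The adjusted p of Kcnj2 lay between 0.0190 and 0.219 over 14 alternatives and was under 0.05 in 5 of them. The STZ reads are at or under the floor of 3 in each library, and the background measures differ there. Per gene, Kcnj2 was under the olfactory receptor percentile in STZ replicates 2 and 3. Per kilobase of locus it was above the olfactory receptor mean in all STZ libraries, at 2.17, 2.31 and 1.56 normalized counts against 0.289, 0.875 and 1.23. That background is a mean and not a percentile, so the comparisons differ in statistic as well as in length. A lower level in bulk tissue can come from fewer cells of a type or from less RNA per cell, which cannot be told apart here for any member.

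Kcnj16 encodes Kir5.1, a subunit that forms channels together with Kir4.1, the product of Kcnj10, in the basolateral membrane of distal tubule cells. It lies on the same chromosome as Kcnj2, at chr10:100514180-100515948, with 59036 bp between their loci. Kcnj16 had 193, 179 and 259 normalized counts in control and 216, 306 and 183 in STZ libraries. The groups overlapped, STZ replicate 2 being the highest value of all, and a log2 fold change of 0.14 (SE 0.24) came with a limma adjusted p of 0.879. Per kilobase of locus Kcnj16 had a mean of 126 normalized counts, the highest of the 75 members on that scale. That scale divides by the whole locus, introns included, and the locus of Kcnj16 has only 1769 bp. Per gene its mean of 223 was under those of Kcne3 (323) and Kcnj13+LOC100362458 (274). Kcnj10, the partner of Kcnj16, had 2, 1 and 1 reads in control and 1, 0 and 0 reads in STZ libraries, never above 3 reads.

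The joined feature Kcnj13+LOC100362458 covers Kcnj13, which encodes the weak rectifier Kir7.1, together with an overlapping gene, and its reads cannot be assigned to either. It had 247, 220 and 181 normalized counts in control and 340, 405 and 248 in STZ libraries. The lowest STZ value exceeded the highest control value by less than 1 normalized count, so the groups stood apart narrowly. Its log2 fold change was 0.59 (SE 0.22), with a limma adjusted p of 0.229. Kcnj8 encodes Kir6.1, a pore subunit of ATP-sensitive channels known from vascular muscle. It had 22.6, 35.9 and 65.7 normalized counts in control and 45.5, 37.6 and 30.1 in STZ libraries. All STZ values of Kcnj8 lay within the control range, and the log2 fold change was -0.02 (SE 0.36, limma adjusted p 0.994). The untested inward rectifiers were Kcnj3, Kcnj5, Kcnj9, Kcnj10, Kcnj11, Kcnj12 and Kcnj15. Kcnj15 was the highest of them, with 5, 2 and 6 reads in control and 4, 2 and 5 reads in STZ libraries, and Kcnj12 had 0 reads in all 6.

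A further feature bears the name of a protein entry, IRK1_RAT, in place of a gene symbol and so falls outside the name rule. It is named here after its values were seen. It lies between Kcnj5 and Fli1 at chr8:32148461-32162369, the place that Kcnj1, the gene of the secretory channel ROMK, holds in the gene order of RefSeq GRCr8. IRK1_RAT had 417, 494 and 628 normalized counts in control and 328, 272 and 100.4 in STZ libraries. Every STZ value lay under every control value, and STZ replicate 3 was the lowest. Its log2 fold change was -1.28 (SE 0.37), with a limma adjusted p of 0.119, and -0.76 without STZ replicate 3. Over 15 alternatives the adjusted p of IRK1_RAT ran from 0.0267 to 0.318 and was under 0.05 in 1, with no filter on low values. Slc12a1, the cotransporter NKCC2 of the thick ascending limb and also named after its values were seen, had 636, 641 and 691 normalized counts in control and 463, 230.5 and 123 in STZ libraries. These groups did not overlap, STZ replicate 3 was again the lowest, and the log2 fold change was -1.47 (SE 0.37) with a limma adjusted p of 0.0732. Over 15 alternatives the adjusted p of Slc12a1 ran from 0.00444 to 0.258 and was under 0.05 in 4. The part of thick ascending limb cells in the IRK1_RAT values was not tested. The features IRK6_RAT and KCNG2_RAT, also outside the rule, had at most 3.81 and 1.03 normalized counts in a library.

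Two-pore domain channels carry leak currents that are open at rest. Kcnk1 encodes TWIK1, a weakly conducting member of this family that is known from kidney tubules, at chr19:56216578-56254603. Kcnk1 had 96.4, 102 and 59.0 normalized counts in control and 246, 144 and 155 in STZ libraries. All 3 STZ values were above all 3 control values, and STZ replicate 1 was the highest. The group means were 85.9 ± 23.4 and 182 ± 56.0 normalized counts (SD, n = 3 each), and the log2 fold change was 1.07 (SE 0.28) with a limma adjusted p of 0.0796. The adjusted p of Kcnk1 lay between 0.0281 and 0.248 over 15 alternatives and was under 0.05 in 3 of them. Kcnk1 was the only two-pore member tested. The other 8 were Kcnk2, Kcnk3, Kcnk4, Kcnk6, Kcnk9, Kcnk10, Kcnk16 and Kcnk18, with means of 0.167 to 4.23 normalized counts.

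Among the 46 untested members with a read, the groups did not overlap for 2, or 4.35%, against 4.62% of all untested features with a read. Both are low two-pore channels, Kcnk10 and Kcnk3, named after their values were seen. Kcnk10, of the mechanosensitive and lipid-sensitive TREK group, had 5, 9 and 4 reads in control and 1, 2 and 0 reads in STZ libraries. Over 18 control and 3 STZ reads the control to STZ ratio was 5.81, with a 95% interval for counting error of 1.70 to 30.8. That interval rests on inferred reads and leaves out the spread between rats. Kcnk10 was also picked by these same values, so no conclusion is drawn from it. Kcnk3, an acid-sensitive channel of the TASK group, had 3, 1 and 1 reads in control and 0 in each STZ library. No fold is given for Kcnk3, because no library of either group exceeded 3 reads. The difference of neither gene was tested by limma in the comparison of 27 members.

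Accessory subunits of voltage-gated channels held the member with the highest mean of all. Kcne3 encodes a small membrane protein that holds the Kcnq1 channel open in epithelia, at chr1:157558044-157565007. Kcne3 had 269, 204 and 266 normalized counts in control and 358, 457 and 382 in STZ libraries. The groups did not overlap, and the lowest STZ value stood well above the highest control value. The group means were 246 ± 36.3 and 399 ± 51.4 normalized counts (SD, n = 3 each), and the log2 fold change was 0.70 (SE 0.19) with a limma adjusted p of 0.102. Its fold change kept the same sign in all 15 alternatives, between 0.57 and 0.77, with adjusted p from 0.0711 to 0.365.

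Kcnq1 encodes the voltage-gated pore that Kcne3 joins, at chr1:203383401-203472247. It had 13.3, 12.97 and 4.45 normalized counts in control and 26.9, 24.7 and 13.05 in STZ libraries. Control replicate 1 lay just above STZ replicate 3, so the groups overlapped, and control replicate 3 was the lowest value. In limma this gave a log2 fold change of 1.07 (SE 0.48) and an adjusted p of 0.335, and the fold change was 0.61 without control replicate 3. Kcnq1 was under the olfactory receptor percentile in 1 library, control replicate 3, where 4.45 normalized counts stood against 10.02.

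Kcne4 encodes an inhibitory subunit of the same family. It had 35.9, 27.5 and 24.5 normalized counts in control and 40.9, 39.6 and 17.1 in STZ libraries, so the STZ values lay on both sides of the control values. Its log2 fold change was 0.07 (SE 0.36, limma adjusted p 0.970). Kcne2, which also joins Kcnq1 in epithelia, had 7.18, 9.15 and 11.1 normalized counts in control and 12.1, 10.9 and 8.03 in STZ libraries, with overlap. Kcne1, the partner of Kcnq1 in heart muscle, had 1 read in control replicate 3 and 0 in the other 5 libraries. Kcne1l was not tested either and had at most 2 reads in a library.

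Kcnip genes encode calcium-binding proteins that attach to the Kv4 pores made by Kcnd2 and Kcnd3. Kcnip1, at chr10:18549984-18783450, had 3.08, 6.86 and 10.02 normalized counts in control and 47.4, 25.7 and 11.04 in STZ libraries. The groups did not overlap, but control replicate 3 and STZ replicate 3 were nearly equal, while STZ replicate 1 was far above the others. A log2 fold change of 1.82 (SE 0.57), the largest positive value among the 27 tested members in this fit, had a limma adjusted p of 0.145. Without STZ replicate 1 the log2 fold change of Kcnip1 was 1.34. Its control values stood on 3, 9 and 9 reads, and control replicate 3 did not exceed the olfactory receptor percentile of 10.02. Kcnip2 had 11.3, 13.7 and 16.7 normalized counts in control and 12.1, 8.90 and 19.1 in STZ libraries, and Kcnip4 had 4.10, 6.10 and 8.90 in control and 6.50, 6.92 and 11.04 in STZ libraries. Both overlapped between the groups, with limma adjusted p of 0.962 for Kcnip2 and 0.879 for Kcnip4, and Kcnip3 was not tested.

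The Kv4 pores themselves were low and did not separate the groups. Kcnd2 had 7.18, 9.92 and 22.3 normalized counts in control and 9.29, 12.9 and 18.1 in STZ libraries, over the longest locus of the tested members. The joined feature Kcnd3+F1M4Y3_RAT had 6.15, 6.86 and 25.6 normalized counts in control and 2.79, 19.8 and 23.1 in STZ libraries. Both were lowest in replicate 1 of each group, as were the olfactory receptors, and their log2 fold changes were 0.13 (SE 0.48) and 0.11 (SE 0.75). Dpp6, a membrane partner of Kv4 pores from the fixed list of channel partners, is named here after its values were seen. It had 4.10, 7.63 and 16.7 normalized counts in control and 23.2, 17.8 and 22.1 in STZ libraries, which did not overlap. The log2 fold change of Dpp6 was 1.25 (SE 0.48), with a limma adjusted p of 0.241, and 0.83 without control replicate 1.

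Kcnab1, Kcnab2 and Kcnab3 encode cytoplasmic beta subunits of voltage-gated channels. Kcnab1 had 8.20, 12.2 and 28.9 normalized counts in control and 9.29, 16.8 and 24.1 in STZ libraries. Its groups overlapped throughout, and the log2 fold change was 0.11 (SE 0.51, limma adjusted p 0.967). Kcnab3 had the highest mean of the untested members, 4.56 normalized counts, just under the minimum of 5. Kcnab2 had 2 reads in control replicate 3 and 0 in the other libraries.

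Voltage-gated pore subunits were the largest group, and many of them are known from nerve and muscle. Of 33 members 12 were tested and 4 were above the olfactory receptor percentile in all libraries. Kcnv2, a silent subunit that modifies other pores, had 2.05, 13.7 and 40.1 normalized counts in control and 1.86, 17.8 and 19.1 in STZ libraries. Replicate 1 of both groups was near 2 normalized counts and the groups overlapped, with a log2 fold change of -0.26 (SE 0.95, limma adjusted p 0.955). Kcng3, another silent subunit, had 2.05, 8.39 and 23.4 normalized counts in control and 1.86, 16.8 and 24.1 in STZ libraries, again lowest in replicate 1 of each group. Kcnc2, a Kv3 pore known from fast-firing neurons, had 7.18, 13.7 and 14.5 normalized counts in control and 3.71, 6.92 and 28.1 in STZ libraries. STZ replicate 3 was the highest of all and the other STZ values lay under all control values, and the log2 fold change was -0.26 (SE 0.65, limma adjusted p 0.928), or -1.01 without STZ replicate 3 and 0.30 without STZ replicate 1. Kcna2, a Kv1 pore, had means of 9.28 ± 3.28 and 6.52 ± 3.15 (SD, n = 3 each).

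The Kcnh genes encode the ether-a-go-go family of voltage-gated pores. Kcnh6 had 10.3, 12.97 and 4.45 normalized counts in control and 0, 5.93 and 3.01 in STZ libraries. STZ replicate 2 lay above control replicate 3, so the groups overlapped, and limma gave a log2 fold change of -1.65 (SE 0.86) and an adjusted p of 0.422. Kcnh2, the gene of the hERG channel, had 0, 3.81 and 8.90 normalized counts in control and 0.929, 9.89 and 15.1 in STZ libraries. Kcnh4 had 0, 5.34 and 13.4 normalized counts in control and 0, 6.92 and 6.02 in STZ libraries. Kcnh5 and Kcnh7 had means of 10.5 and 8.91 normalized counts over the 6 libraries. Kcnh2, Kcnh4 and Kcnh6 were each at or under the olfactory receptor percentile in 4 of the 6 libraries, and no Kcnh gene separated the groups.

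The 21 untested voltage-gated pore features included Kcna1, Kcna3, Kcna4, Kcna6, Kcna10, Kcnb2, Kcnc1, Kcnd1, Kcng1, Kcng4, Kcnh3, Kcnh8, Kcnq3, Kcns1, Kcns2, Kcns3, Kcnv1 and the joined features Kcna1,Kcna6 and Kcnh3,Mcrs1. Their means ran up to 4.55 normalized counts, for Kcnd1. In this group 14 features stayed at or under 3 reads in all libraries, and the joined feature Kcna1,Kcna6 had 0 reads in all 6.

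Calcium- and sodium-activated channels open when these ions rise inside the cell. Kcnn3 encodes the small-conductance channel SK3, at chr2:181715888-181860455. Kcnn3 had 19.5, 16.8 and 14.5 normalized counts in control and 6.50, 8.90 and 18.1 in STZ libraries. STZ replicates 1 and 2 lay under all control values and STZ replicate 3 lay among them, so the groups overlapped. By limma its log2 fold change was -0.66 (SE 0.44), with an adjusted p of 0.556, and it was -0.37 without STZ replicate 1 and -1.05 without STZ replicate 3. Kcnma1, the pore of the large-conductance BK channel, had 5.13, 6.86 and 6.68 normalized counts in control and 1.86, 8.90 and 18.1 in STZ libraries. The STZ values of Kcnma1 lay on both sides of the control values, with a log2 fold change of 0.18 (SE 0.71, limma adjusted p 0.959).

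The sodium-activated Kcnt2 had 5.13, 14.5 and 15.6 normalized counts in control and 5.57, 9.89 and 17.1 in STZ libraries, which overlapped. The untested members of this group were the SK and IK channels Kcnn2 and Kcnn4, the sodium-activated Kcnt1, and the BK beta subunits Kcnmb1, Kcnmb2, Kcnmb3 and Kcnmb4. Kcnmb3 had 0, 6 and 6 reads in control and 0, 2 and 1 reads in STZ libraries, the most among the beta subunits. Of the BK gamma subunits in the fixed list of partners, Lrrc26, Lrrc38, Lrrc52 and Lrrc55 were at or under 3 reads in all 6 libraries.

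**Figure D2:**
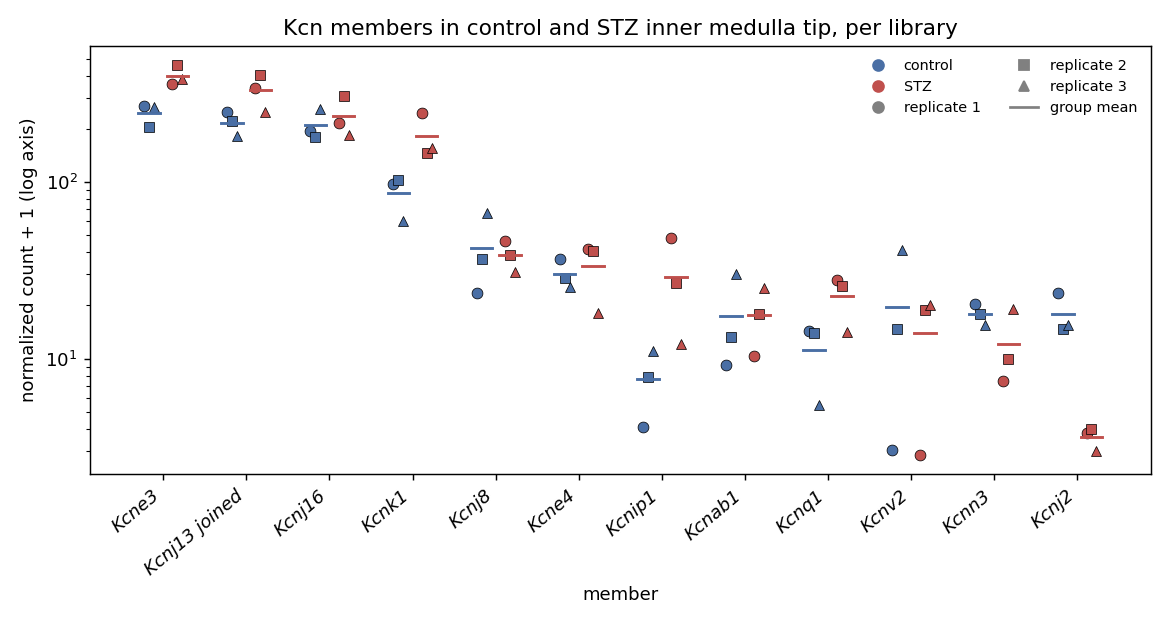
Normalized count + 1 (log axis) of the 12 members given with full statistics, in each of 3 control (blue) and 3 STZ (red) libraries, with marker shapes for the replicates and short lines for group means. Kcnj2 is lower and Kcnk1, Kcne3, Kcnip1 and the joined Kcnj13 feature are higher in all 3 STZ libraries than in any control library, and the other 7 overlap.

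Levels were also summed over sets of members in each library. The summed level of the 14 members above background was 933, 867 and 1012 normalized counts in control and 1300, 1482 and 1181 in STZ libraries. These sums did not overlap, and most of each sum came from Kcne3, Kcnj16, Kcnk1 and Kcnj13+LOC100362458. The separation restates that of Kcne3, Kcnk1 and Kcnj13+LOC100362458 given above. The set needed a value above background in every library, which left out Kcnj2 through its low STZ values. The 13 other tested members summed to 80.0, 121 and 168 normalized counts in control and 113, 155 and 149 in STZ libraries. The 48 untested members summed to 47.2, 67.1 and 104 normalized counts in control and 43.6, 73.2 and 96.4 in STZ libraries. The sums of the untested members were lowest in replicate 1 and highest in replicate 3 of both groups, as was the olfactory receptor percentile, and whether the reads of these members come from channel transcripts was not tested. Among the 21 tested members with overlapping groups and an unadjusted p of at least 0.05, log2 fold changes ran from -1.65 for Kcnh6 to 0.94 for Kcnh2, with limma adjusted p from 0.422 to 0.994. Kcnh6 met the minimum mean only through its control values and Kcnh2 only through its STZ values.

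**Figure D3:**
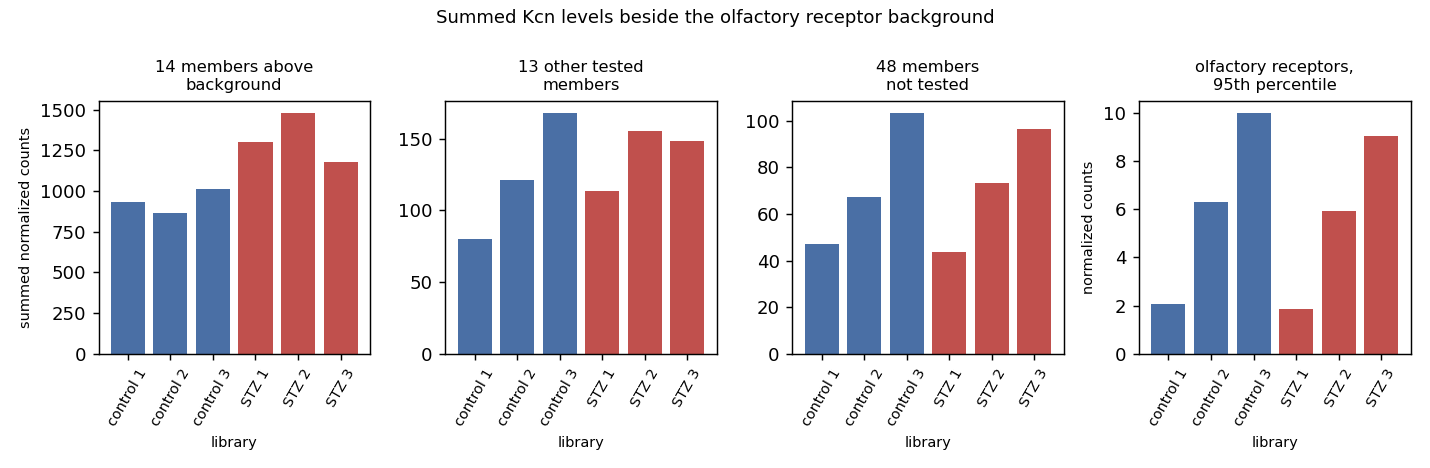
Summed normalized counts of 3 sets of Kcn members in each library, and the 95th percentile of 836 olfactory receptor genes, each on its own axis from 0. The 48 untested members and the olfactory receptors are lowest in replicate 1 and highest in replicate 3 of both groups, while the 14 members above background are higher in all 3 STZ libraries than in any control library.

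The sequence before the transcription start was read for members in RefSeq (GRCr8), where 49 of the 73 members not named for a comma-joined pair of genes had an entry, with 54 starts. In the 250 bases before each start, the median GC content was 59.4% for these starts against 51.2% for all 33469 starts. The letters GGGCGG, the core of a GC box, were found on either strand in 51.9% of the member starts and in 30.5% of all starts. The letters TATAAA were found in 1.85% of the member starts, a single one, against 12.9% of all, and CCAAT in 27.8% against 34.0%. A match is a description of letters, not of a bound site. The sequences of Kcnj2, Kcne3 and Kcnj13 are shown because the features that hold these genes had groups that did not overlap, and each gene had a single start in the table. For Kcnj13 that feature is the joined one, so its separation cannot be credited to Kcnj13 alone. They lie directly upstream of the annotated transcript, outside its exons, at chr10:96559975-96560224 on the plus strand for Kcnj2, chr1:163935785-163936034 on the plus strand for Kcne3 and chr9:95518987-95519236 on the minus strand for Kcnj13. Capitals mark the letters TATAAA or CCAAT or GGGCGG, on either strand.
Kcnj2: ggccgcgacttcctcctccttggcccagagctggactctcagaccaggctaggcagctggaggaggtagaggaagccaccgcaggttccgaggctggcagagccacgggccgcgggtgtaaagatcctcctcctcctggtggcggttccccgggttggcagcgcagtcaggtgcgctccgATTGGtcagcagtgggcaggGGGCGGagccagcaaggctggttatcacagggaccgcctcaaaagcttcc
Kcne3: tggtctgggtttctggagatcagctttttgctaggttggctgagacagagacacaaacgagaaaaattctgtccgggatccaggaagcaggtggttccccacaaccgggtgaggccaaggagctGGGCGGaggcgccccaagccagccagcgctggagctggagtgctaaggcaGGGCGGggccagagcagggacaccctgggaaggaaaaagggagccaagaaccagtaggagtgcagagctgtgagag
Kcnj13: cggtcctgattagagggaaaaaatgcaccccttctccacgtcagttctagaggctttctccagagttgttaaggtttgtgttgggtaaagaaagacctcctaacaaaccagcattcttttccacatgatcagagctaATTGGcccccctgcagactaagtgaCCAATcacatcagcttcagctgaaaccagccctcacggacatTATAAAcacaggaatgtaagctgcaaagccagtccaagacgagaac
The Kcnj2 sequence had a GC content of 66.0% with 1 CCAAT and 1 GGGCGG, and the Kcne3 sequence 59.6% with 2 GGGCGG. The Kcnj13 sequence had 46.8% with 1 TATAAA and 2 CCAAT. Kcnip1 had 2 starts in the table, of which the one further upstream in the gene held none of the 3 motifs and the other held 1 CCAAT and 1 GGGCGG.

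Other genes of potassium handling were read from 3 fixed lists. Over all features tested, 2.1% passed limma at an adjusted p of 0.05 and 14.7% had an unadjusted p under 0.05. Of the channel partners 15 of 17 were analysed and 7 tested, and by limma 0 passed, with 1 at an unadjusted p under 0.05, and Tmem38b, an intracellular cation channel, had the highest mean. The group means of Tmem38b were 145.6 ± 18.2 for control and 172 ± 35.6 normalized counts for STZ rats (SD, n = 3 each). Of the pumps and cotransporters 11 of 17 were analysed and 8 tested, and 1 passed, higher in STZ rats, with 3 at an unadjusted p under 0.05. These 3 were Slc12a2 and Atp1b3, higher, and Slc12a1, lower in all STZ libraries. Slc12a2, which passed, encodes the sodium, potassium and chloride cotransporter NKCC1, and had 475, 345 and 394 normalized counts in control and 699, 743 and 906 in STZ libraries. Slc12a2 rose by a log2 of 0.95 (SE 0.19, limma adjusted p 0.0341). Slc12a2 did not pass limma without control replicate 2 (adjusted p 0.166) or without the trend (0.172). Nor did it pass without STZ replicate 1, 2 or 3 (0.0632, 0.113 and 0.108). Atp1b3, a beta subunit of the sodium pump and the highest of this list, had 782, 789 and 1280 normalized counts in control and 1409, 1573 and 1441 in STZ libraries, with a limma adjusted p of 0.163. Over 15 alternatives the adjusted p of Atp1b3 ran from 0.0311 to 0.465 and was under 0.05 in 1, without control replicate 3. Of the kinase and mineralocorticoid genes 14 of 17 were analysed and 13 tested, and by limma 0 passed, with 3 at an unadjusted p under 0.05 (Scnn1b and Scnn1g higher, Hsd11b2 lower), which are also principal cell markers. Sgk1, the highest of that list and a kinase that raises the surface level of several channels, had 22188, 19897 and 16328 normalized counts in control and 28302, 24711 and 15732 in STZ libraries, with overlap.

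Cell type markers were read beside the channels from 9 fixed lists. The counts below stand against 2.1% of all features tested that passed limma and 14.7% at an unadjusted p under 0.05. The principal cell markers, which define the collecting duct of the inner medulla, summed to 18943, 17902 and 11019 normalized counts in control and 35619, 18572 and 23584 in STZ libraries, led by Aqp3, and 0 of 8 tested passed limma, with 5 at an unadjusted p under 0.05. Of these 5, Aqp2, Aqp3, Scnn1b and Scnn1g had higher means in STZ rats, and Hsd11b2, the enzyme that inactivates glucocorticoids, was lower in every STZ library. Hsd11b2 had 57.4, 27.5 and 40.1 normalized counts in control and 21.4, 22.7 and 22.1 in STZ libraries, a log2 fold change of -0.83 (SE 0.31, limma adjusted p 0.228), and the sum of its list was carried by the aquaporins. The intercalated cell markers summed to 2636, 1169 and 1381 in control and 546, 473 and 478 in STZ libraries, led by Atp6v1g3, and 4 of 6 fell (Atp6v1b1, Atp6v0d2, Atp6v1g3 and Slc4a1). Of the thick ascending limb, a segment that lies outside the inner medulla, Umod and Egf fell among 4 tested, and the list, led by Cldn10, summed to 2911, 2680 and 3445 in control and 2797, 2394 and 1598 in STZ libraries. The groups overlapped for Cldn10, whose log2 fold change was of the other sign, at 0.25 (SE 0.22, limma adjusted p 0.712), and ran from 0.12 to 0.45 with a library left out. The endothelial markers, led by Emcn, summed to 9081, 6987 and 7439 in control and 3940, 3990 and 3600 in STZ libraries, and Emcn and Plvap fell among 5 tested. Pecam1 of the same list did not follow them, with overlapping groups and a log2 fold change of 0.045 (SE 0.27) that ran from -0.27 to 0.27 with a library left out. The urothelial markers, led by Upk3a, summed to 112, 85.4 and 132 in control and 440.1, 517 and 475 in STZ libraries, and Upk3a and Upk1b rose among 5 tested. The smooth muscle and pericyte markers, led by Tagln, summed to 494, 544 and 545 in control and 987, 886 and 870.3 in STZ libraries, and Tagln and Cspg4 rose among 5 tested. In the same list Des and Pdgfrb had log2 fold changes of -0.23 (SE 0.34) and -0.16 (SE 0.25), with overlapping groups, and that of Des was 0.038 without control replicate 2. That of Pdgfrb was -0.015 without STZ replicate 2 and -0.43 without STZ replicate 1.

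Of the fibroblast markers, led by Dcn, Pdgfra rose among 4 tested, while Dcn itself had a log2 fold change of -0.37 (SE 0.33, limma adjusted p 0.705) with overlapping groups, or 0.041 without STZ replicate 3. The sums of this list were 8930, 7249 and 8642 normalized counts in control and 10532, 7771 and 4416 in STZ libraries. The proximal tubule markers, led by Slc22a6, summed to 14.4, 38.9 and 63.4 in control and 17.6, 33.6 and 59.2 in STZ libraries. The leukocyte markers, led by Cd74, summed to 493, 2618 and 1903 in control and 1434, 2482 and 2649 in STZ libraries. Of these lists 0 of 2 and 0 of 6 tested genes passed limma, and 0 were at an unadjusted p under 0.05. Over all features tested these shares were 2.1% and 14.7%. No marker of the 9 lists was at or under 3 reads in all libraries. Of the 14 list genes that passed, counting Slc12a2, between 6 without STZ replicate 2 and 13 without control replicate 3 passed with a single library left out. Upk3a, Tagln, Umod, Egf, Emcn and Atp6v1b1 passed in all 6 such fits. Without the intensity trend in limma, Upk3a alone of the 14 passed, and the other 13 had adjusted p from 0.0577 to 0.179 with the same direction. Upk1b passed narrowly, at a limma adjusted p of 0.0489. This value was 0.0607 with a minimum mean of 1 and 0.0768 with equal library totals, so the call was lost in both. The part of these cell types in the values of any Kcn gene was not tested.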

How the data were processed

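RNA-seq of the rat IM tip was analysed in 3 control and 3 STZ libraries. The authors made PCR-amplified cDNA (SMARTer), sequenced it on a HiSeq2000, aligned reads to rn4 with STAR 2.3.1t, counted uniquely mapped reads per gene (Ensembl RGSC3.4) and normalized them with DESeq 1.16.0. In the deposited table the signal of a feature is thus its read count over the size factor of the library. Whether counting used strand was not given in the sources used here, so antisense genes could share reads. Within a library all values were multiples of 1 smallest value (tolerance 0.01), and reads are inferred as values divided by it. That value is close to 1 (0.989 and 1.004) in STZ replicates 2 and 3, so whole reads were not settled independently there and no count test was run. Without molecular identifiers, intervals and floors of 3 reads cover counting error only.

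Groups were compared with limma 3.58.1 (R 4.3.3, intensity trend, pseudocount 1). Exact permutation tests of 3 against 3 cannot go below 0.1. Members given in full were those passing, those whose groups did not overlap, the highest of each role and the 10 highest means, and in lists the genes passing and the most abundant. Kcnk10, Kcnk3, Dpp6, Slc12a1, Hsd11b2, Aqp2, Scnn1b, Scnn1g, Des, Pdgfrb, Pecam1, IRK1_RAT and single values of lower members were chosen after values were seen. Members and lists were chosen with earlier results of these data known. Genes were matched by symbol, and list genes without a match were not analysed here. Some members, a further feature and a marker list are not reported here. Alternatives were other pseudocounts, minimum means, equal library totals, no trend, robust moderation, the replicate block and each library left out.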

Additional observations from a re-analysis of the deposited data

How the results depend on the processing

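Kcn genes called by limma numbered 0 with all 6 libraries, 6 at an unadjusted p under 0.05. The count was 1 with a pseudocount of 5, with a minimum mean of 1, with equal library totals and without the trend (Kcnj2 each time), where 2.19%, 1.49%, 2.88% and 0.230% of all features were called. It was 1 of 6 with a minimum mean of 20 and 1 of 73 with no filter (Kcnk1), where 4.32% and 1.59% of all features were called. It was 0 with a pseudocount of 0.5, with robust moderation and with each library left out in turn, where 2.02%, 2.14% and 0.653% to 2.61% of all features were called. The cause of these moves was not tested. With the replicate number as a replicate block, 2 were called (Kcnj2 and Kcnk1), and all features called went from 283 to 561. Same-numbered control and STZ libraries correlated in their deviations from the group means with r = 0.574, -0.015 and 0.496 across 13486 features, which are not independent replicates, and control replicate 2 did not correlate best with its own number, so the numbers are not taken as pairs. edgeR, DESeq2 and edgeR with the replicate block, listed as alternatives on whole reads, were not run, because whole reads were not settled independently in STZ replicates 2 and 3.

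Kcn genes above background numbered 14 at the 95th percentile, 22 at the 90th and 5 at the 99th, by construction of the threshold, and 17 had more than 3 reads in every library. Groups did not overlap for 5 members, or 18.5% against 20.3% of all features tested. With untested members included it was 7, or 9.59% against 12.8% of all features with a read. With equal library totals it was 6, and the share of all features was not taken at that scaling, so this count is not interpreted.

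Among the 12 members given in full, Kcnc2 and the named list genes, fold changes turned sign only with a library left out. The log2 fold change then ran from -0.26 to 0.59 for Kcnab1, -0.14 to 0.46 for Kcne4, -0.063 to 0.31 for Kcnj16, -0.38 to 0.38 for Kcnj8, -1.01 to 0.30 for Kcnc2, -1.26 to 0.66 for Kcnv2, -0.078 to 1.21 for Cd74, -0.38 to 0.038 for Des, -0.27 to 0.27 for Pecam1, -0.70 to 0.041 for Dcn and -0.91 to 0.020 for Slc22a6. The 48 members under a mean of 5 were left out by that choice: 52 members were tested at a minimum mean of 1 and 73 with no filter, with 7 and 8 at an unadjusted p under 0.05, or 13.5% and 10.96% against 11.3% and 9.09% of all features tested in those fits.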
